A study of Mus musculus with 20 samples.

Results

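Adipokines are proteins that fat cells release into the blood or the surrounding tissue, and 10 genes of this kind were followed, of 25219 genes in the deposited table. They were taken as named adipokine and receptor genes, with earlier results of these data known: Adipoq (adiponectin), Cfd (adipsin), Rbp4 (retinol binding protein 4), Retn (resistin), Lep (leptin), Nampt (visfatin), Apln (apelin), Sfrp5 (secreted frizzled-related protein 5) and the adiponectin receptors Adipor1 and Adipor2. All 10 were in the table and all 10 passed the filter on low counts in both tissues. RNA came from the inguinal white adipose tissue (iWAT) and brown adipose tissue (BAT) of males, and each tissue gave 5 Control libraries and 5 from Ai-α4KO mice. In Ai-α4KO mice an Adiponectin-CreERT2 transgene, a tamoxifen-inducible Cre recombinase under adiponectin gene control, removed floxed Igbp1 alleles, so that α4, a regulatory partner of the phosphatase PP2A, was lost from adipocytes. Control mice carried the floxed alleles without the transgene, although the labels call them WT. Mice of both genotypes were given tamoxifen as adults, and tissue was taken a week after recombination. The transgene, and with it a piece of adiponectin gene control sequence, was present in the Ai-α4KO mice alone, and its part in the Adipoq values was not tested. Neither the labels nor the methods say whether the libraries of a group are separate mice or whether iWAT and BAT came from the same mice, so the p-values measure the spread between libraries.

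Adiponectin is secreted by adipocytes as trimers and larger complexes, and acts through AdipoR1, linked mainly to AMP-activated kinase, and AdipoR2, linked mainly to PPARα and fatty acid oxidation. Leptin reports fat stores to the brain, and adipsin is complement factor D, the protease that cleaves factor B in the alternative complement pathway. Resistin is an adipocyte hormone in mice, RBP4 carries retinol in plasma, NAMPT makes the NAD precursor nicotinamide mononucleotide and is also found outside cells, apelin is a peptide ligand of a G protein-coupled receptor, and SFRP5 binds Wnt proteins.

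The sequences just upstream of 5 of the genes are shown because they span the patterns described below (lower in both depots, in 1 depot, or widely spread among Control libraries) and because their start sites in RefSeq (GRCm38.p6) coincide with those of the deposited table. Each run holds the 150 bases before the start site, 5′ to 3′. Capitals mark 4 motifs that were searched on both strands. The CCAAT box was read as CCAAT. The GC box, a site of Sp1-type factors, was read as GGGCGG. The TATA box was read as TATAA. A palindrome that C/EBP factors can bind was read as TTGCGCAA. In Lep the capitals at the TATA box join overlapping matches, one on each strand.
Adipoq, chr16:23146386-23146535, plus strand: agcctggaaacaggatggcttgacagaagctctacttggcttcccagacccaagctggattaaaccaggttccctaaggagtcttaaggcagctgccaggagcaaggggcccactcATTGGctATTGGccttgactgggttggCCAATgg
Cfd, chr10:79890703-79890852, plus strand: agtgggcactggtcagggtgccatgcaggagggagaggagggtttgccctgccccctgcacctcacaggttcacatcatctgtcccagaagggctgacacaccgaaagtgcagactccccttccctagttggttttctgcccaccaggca
Retn, chr8:3655620-3655769, plus strand: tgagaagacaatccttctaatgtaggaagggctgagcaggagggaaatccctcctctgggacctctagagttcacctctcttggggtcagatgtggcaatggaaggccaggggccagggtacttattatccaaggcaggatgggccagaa
Lep, chr6:29060071-29060220, plus strand: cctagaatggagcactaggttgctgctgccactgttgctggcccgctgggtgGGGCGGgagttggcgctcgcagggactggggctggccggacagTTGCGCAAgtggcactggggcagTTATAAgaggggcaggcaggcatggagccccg
Nampt, chr12:32820185-32820334, plus strand: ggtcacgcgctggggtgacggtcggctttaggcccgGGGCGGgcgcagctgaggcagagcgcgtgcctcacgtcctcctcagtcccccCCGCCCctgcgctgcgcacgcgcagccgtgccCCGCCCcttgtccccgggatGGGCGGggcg

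The Adipoq run holds 3 CCAAT boxes, which begin 34, 27 and 7 bases before the start. The Lep run holds a GC box 98 bases before the start, the C/EBP palindrome at 55 bases and TATA matches at 32 and 31 bases, whereas the Nampt run holds 4 GC boxes and a GC content of 78%. None of the 4 motifs occurs in the Cfd or Retn run. Among 32851 mouse promoter windows that run from 250 bases before to 50 bases after the start, 33.9% hold a CCAAT box, 32.7% a GC box, 22.8% a TATA box and 0.164% the C/EBP palindrome. These windows are longer than the printed runs, so their shares are not directly comparable with what the runs hold. A match is a description of the sequence and was not tied to any binding here. In the deposited table, whose build is given as mm10, Adipoq spans 23146536 to 23157968 on chromosome 16, Cfd 79890853 to 79892660 on 10, Retn 3655770 to 3659818 on 8, Lep 29060221 to 29073876 on 6 and Nampt 32820335 to 32853369 on 12, all on the plus strand. Adipor1 lies from 134415467 to 134432341 on chromosome 1 (plus strand). On the minus strand are Rbp4 (38116620 to 38125321 on 19), Sfrp5 (42197971 to 42202252 on 19), Apln (48025146 to 48034852 on X) and Adipor2 (119353150 to 119417483 on 6).

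Library totals ran from 24023371 to 50384446 counts. Igbp1 was lower in every Ai-α4KO library: in iWAT it was at 57.5 to 76.6 CPM in Control and 10.1 to 11.1 CPM in Ai-α4KO libraries (CPM, a library's TMM-normalized count relative to its size), and in BAT at 85.4 to 105 against 13.7 to 25.2 CPM. The log2 fold change of Igbp1 was -2.65 in iWAT (SE 0.094, adjusted p = 4.99e-08) and -2.50 in BAT (SE 0.1695, adjusted p = 2.20e-07). The tissues fitted their labels by their defining markers: in Control libraries 9 brown adipocyte markers summed to 8711 to 13175 CPM in BAT and 213 to 1148 CPM in iWAT, and 3 Hoxc markers of inguinal fat to 78.2 to 121 CPM in iWAT and 3.99 to 14.4 CPM in BAT. Some iWAT libraries stood apart in markers of other cells. The 4 B cell markers summed to 371 CPM in Control iWAT 1 and 147 in Control iWAT 4, against at most 9.75 in the other iWAT libraries, 4 epithelial markers reached 51.7 and 19.2 CPM in the same Control libraries and 43.3 and 86.6 in Ai-α4KO iWAT 1 and 2, and 6 skeletal muscle markers reached 6292 CPM (Control iWAT 4) and 4852 CPM (Ai-α4KO iWAT 1). In BAT the muscle sums were 797 to 8495 CPM in Control and 11682 to 37750 CPM in Ai-α4KO libraries.

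Transcripts of adiponectin, adipsin, RBP4 and the receptor AdipoR2 were lower in both Ai-α4KO depots, resistin transcripts in iWAT and Nampt transcripts in BAT. In iWAT 5 of the 10 members fell (Adipoq, Cfd, Rbp4, Retn and Adipor2) and none rose, with thresholds of 0.01 for the adjusted p and 2-fold for the change in edgeR's quasi-likelihood test over all 14604 genes tested, where 10.7% of all genes fell and 11.3% rose. In BAT 5 of 10 fell (Adipoq, Cfd, Rbp4, Nampt and Adipor2) and none rose, where 13.3% of the 14344 genes tested fell and 18.2% rose. At an unadjusted p below 0.05 the count of members higher in Ai-α4KO was also 0 in iWAT and 0 in BAT, and DESeq2 called 0 higher in each. Of all genes, DESeq2 called 1684 of 14604 higher in iWAT and 2813 of 14344 in BAT. The share of all genes at that unadjusted p is not given here. The median log2 fold change of the members was -1.68 in iWAT, against 0.01 over all genes, and -1.36 in BAT, against -0.03. Without the 4 iWAT libraries named above the iWAT count was 6, with Sfrp5 (log2 fold change -1.72) added, and Cfd at -3.26. In that fit 1825 of 14543 genes fell and 1889 rose. At an adjusted p below 0.05 without a fold minimum, 8 members passed in iWAT, where 54.7% of all genes did, and 5 in BAT, where 63% did. In bulk tissue fewer adipocytes and less of a transcript per adipocyte cannot be told apart. Over the same libraries the 16 adipocyte markers summed to 40346 to 54375 CPM in Control and 18516 to 28053 CPM in Ai-α4KO iWAT, and to 42289 to 48660 and 19533 to 25217 CPM in BAT, while 7 macrophage markers summed to 1079 to 1815 and 6962 to 9347 CPM in iWAT and to 220 to 493 and 4092 to 6672 CPM in BAT. Of the 16 adipocyte markers, 14 were called lower in iWAT and 12 in BAT, with median log2 fold changes of -1.57 and -1.64. Their sums are led by abundant markers such as Fabp4, which was called in neither depot. The part of these shifts in the adipokine values was not tested.

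**Figure D1:**
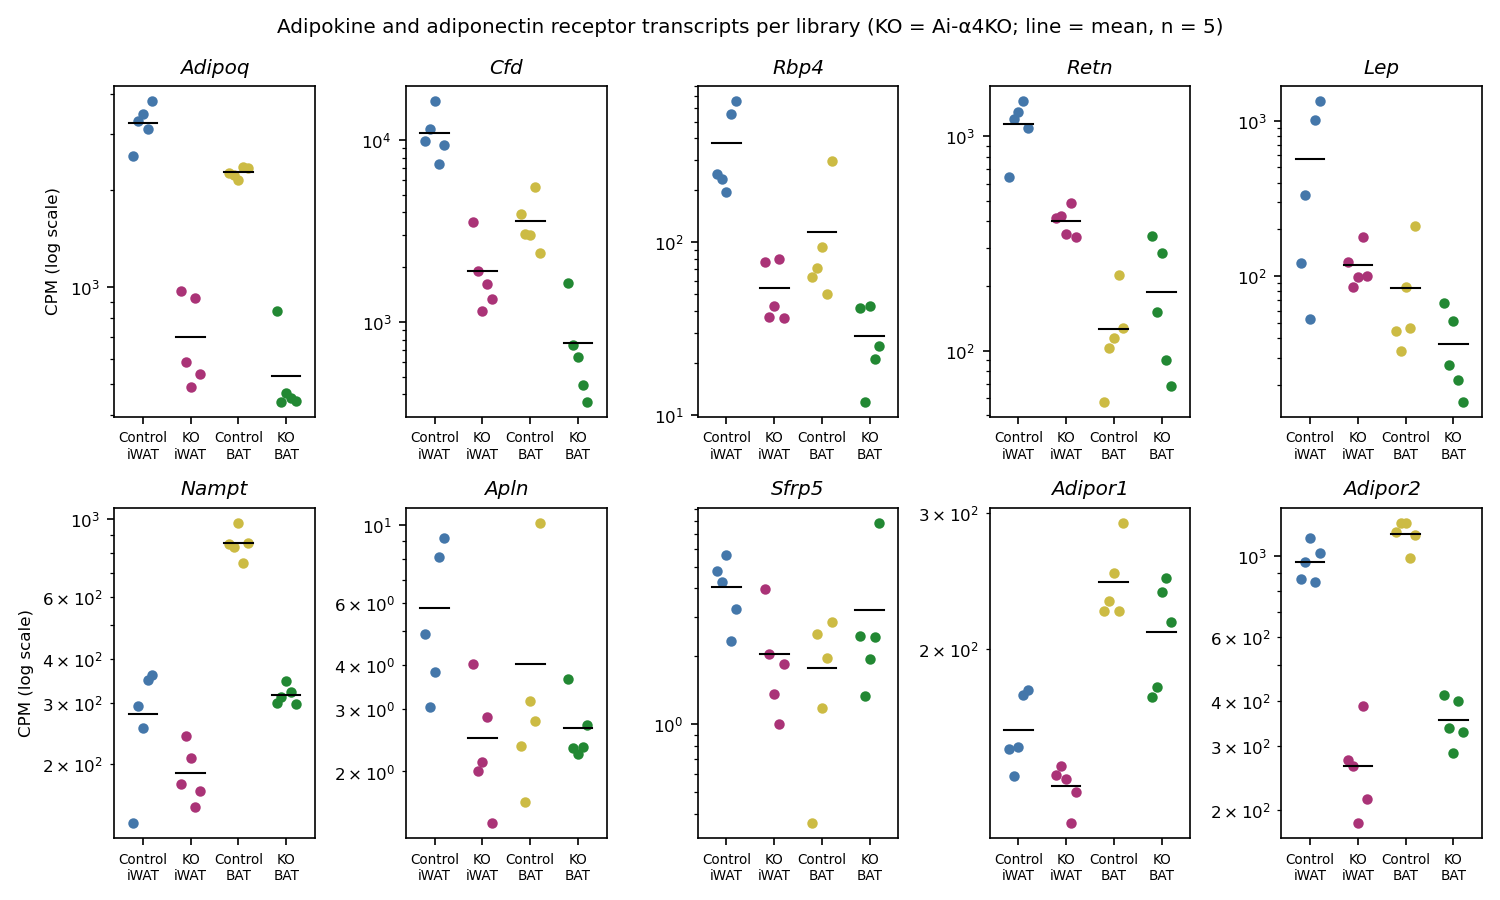
Expression of the 10 genes in each of the 20 libraries, as CPM on a log axis, one panel per gene with Control and Ai-α4KO (KO) libraries of iWAT and BAT. Points are libraries in replicate order and lines are means of 5. Adipoq, Cfd, Rbp4 and Adipor2 libraries of the 2 genotypes do not overlap in either depot, and Control iWAT libraries of Lep spread from 53.3 to 1335 CPM.

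Adipoq was at 2564, 3278, 3456, 3103 and 3791 CPM in the 5 Control iWAT libraries and at 972, 587, 488, 924 and 539 CPM in the Ai-α4KO ones. In BAT its values were 2272, 2237, 2159, 2372 and 2344 CPM in Control and 840.4, 440.4, 469, 453 and 441 CPM in Ai-α4KO. The lowest Control library of each depot was above the highest Ai-α4KO library. Adipoq fell 4.63-fold in iWAT (log2 fold change -2.21, SE 0.219, adjusted p = 1.38e-05) and 4.43-fold in BAT (log2 fold change -2.15, SE 0.188, adjusted p = 1.47e-06). By mean FPKM, which divides by transcript length, adiponectin was ranked 7 of all genes in Control and 121 in Ai-α4KO iWAT, and 38 and 220 in BAT. The call held without any 1 library, and the difference of its effect between depots was 0.10 on the log2 scale (95% interval -0.50 to 0.70).

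Cfd was the most abundant member. Its Control iWAT libraries were at 9824, 11489, 16354, 7346 and 9391 CPM and its Ai-α4KO iWAT libraries at 3534, 1902, 1144, 1612 and 1333 CPM. In BAT it was at 3912, 3047, 2996, 5479 and 2380 CPM in Control and 1627, 744, 644, 449 and 364 CPM in Ai-α4KO. Again no library of one genotype reached the other. Cfd fell 5.72-fold in iWAT (log2 fold change -2.52, adjusted p = 8.33e-05) and 4.80-fold in BAT (log2 fold change -2.26, adjusted p = 2.96e-04). In FPKM it was the gene of rank 2 in Control and 12 in Ai-α4KO iWAT, and 6 and 96 in BAT.

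Rbp4 was at 248, 233, 195, 557 and 658 CPM in Control iWAT and at 76.7, 37.2, 42.6, 79.6 and 36.7 CPM in Ai-α4KO iWAT, with no overlap. It fell 6.96-fold there (log2 fold change -2.80, SE 0.408, adjusted p = 1.72e-04), the lowest log2 fold change of any member in iWAT. In BAT its Control libraries were at 62.7, 71.0, 94.0, 50.5 and 295 CPM and its Ai-α4KO libraries at 41.9, 11.96, 42.9, 21.1 and 25.2 CPM. Control BAT 5 was far above the rest, but every Control library was above every Ai-α4KO one. The BAT log2 fold change was -2.05 (SE 0.5101, adjusted p = 0.00406). This call was lost without Ai-α4KO BAT 4 (log2 fold change -1.90) or Ai-α4KO BAT 5 (-2.01), and without Control BAT 5 the value was -1.32.

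Retn was called lower in iWAT and not in BAT. In iWAT it was at 645, 1206, 1292, 1454 and 1090 CPM in Control and 415, 423, 350.4, 489 and 337 CPM in Ai-α4KO libraries. It fell 2.84-fold with no overlap (log2 fold change -1.50, SE 0.204, adjusted p = 1.05e-04). In BAT it was at 57.8, 103, 115, 224 and 128 CPM in Control and 340.3, 152, 285, 90.7 and 68.6 CPM in Ai-α4KO. The genotypes overlapped, with a log2 fold change of 0.53 (95% interval -0.44 to 1.51, adjusted p = 0.314). The difference of the effect between depots was 2.07 on the log2 scale (95% interval 0.94 to 3.20), with an adjusted p of 0.0157 that missed the threshold of 0.01. It passed in DESeq2 and without Control iWAT 1, Control BAT 4 or Ai-α4KO BAT 5.

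Nampt was called lower in BAT and not in iWAT. Its BAT libraries were at 850.0, 833, 977, 751 and 854 CPM in Control and 299, 311, 346, 323 and 297 CPM in Ai-α4KO, 2 narrow groups far apart. The fall was 2.77-fold (log2 fold change -1.47, SE 0.114, adjusted p = 5.84e-07). In iWAT it was at 136, 292, 253, 348 and 359 CPM in Control and 175, 240.2, 209, 151 and 168 CPM in Ai-α4KO. These overlapped through Control iWAT 1 alone, the library with the highest B cell marker sum, and the log2 fold change was -0.56 (95% interval -1.09 to -0.04, adjusted p = 0.0656). The effect in BAT minus that in iWAT was -0.88 (95% interval -1.44 to -0.32, adjusted p = 0.0339), which did not pass.

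Lep varied more among Control iWAT libraries than any other member, a 25.0-fold range, with 122, 330.5, 53.3, 1003 and 1335 CPM. The Ai-α4KO iWAT libraries lay at 123, 85.3, 98.3, 179 and 101 CPM, inside the Control range. The log2 fold change of -2.28 had a 95% interval of -3.89 to -0.68 and an adjusted p of 0.0203, which did not pass. It passed in DESeq2 (log2 fold change -2.32), in 1 fit of all 20 libraries (-2.28), and without Control iWAT 1 (-2.60) or Control iWAT 3 (-2.63), and was -1.69 without Control iWAT 5. By limma on log2 FPKM it was -1.32 and -1.33 (pseudocounts of 1 and 0.1). In BAT leptin was at 44.6, 32.9, 85.3, 46.8 and 212 CPM in Control and 67.4, 27.1, 51.4, 21.7 and 15.6 CPM in Ai-α4KO. The 2 genotypes overlapped, with a log2 fold change of -1.25 (95% interval -2.42 to -0.08, adjusted p = 0.0588) that was -0.57 without Control BAT 5.

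Apln and Sfrp5 were near 1 FPKM, far below the other members. Apln ran from 3.05 to 9.20 CPM in Control and 1.43 to 4.03 CPM in Ai-α4KO iWAT (log2 fold change -1.23, adjusted p = 0.0146), and from 1.64 to 10.2 and 2.24 to 3.66 CPM in BAT (log2 fold change -0.64, adjusted p = 0.219, and 0.05 without Control BAT 5). Neither depot passed, and the groups overlapped in both, but in iWAT Apln was called by DESeq2 and without Control iWAT 2 (-1.39) or Ai-α4KO iWAT 1 (-1.47), and by limma on log2(FPKM + 1) it was -0.56. Sfrp5 ran from 2.34 to 5.63 and 1.003 to 3.97 CPM in iWAT (log2 fold change -0.99, adjusted p = 0.0429) and from 0.364 to 2.83 and 1.34 to 7.84 CPM in BAT (log2 fold change 0.82, adjusted p = 0.215, and 0.16 without Ai-α4KO BAT 5). Without Ai-α4KO iWAT 1 Sfrp5 was called in iWAT (-1.38). Its depot difference of 1.84 (95% interval 0.35 to 3.33, adjusted p = 0.0861) did not pass, and was 2.62 without the 4 iWAT libraries named above and 0.999 by limma on log2(FPKM + 1).

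**Figure D2:**
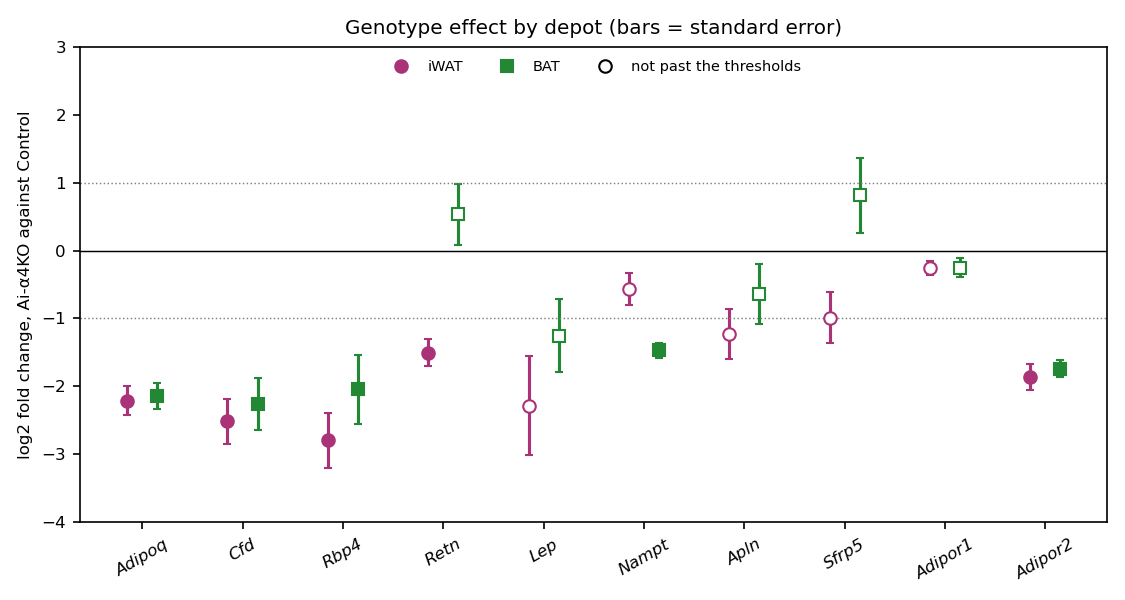
Log2 fold change of each gene, Ai-α4KO against Control, in iWAT (circles) and BAT (squares), with standard errors as bars. Filled symbols passed an adjusted p of 0.01 and a 2-fold change (dotted lines). Adipoq, Cfd, Rbp4 and Adipor2 are filled in both depots, Retn in iWAT and Nampt in BAT.

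Of the adiponectin receptors, Adipor2 was called lower in both depots and Adipor1 in neither. Adipor2 was at 866, 960.5, 1120, 847 and 1017 CPM in Control iWAT and 275, 265, 184, 387 and 215 CPM in Ai-α4KO iWAT, and in BAT at 1162, 1234, 1234, 988 and 1139 CPM in Control and 416, 337, 288, 399.9 and 329 CPM in Ai-α4KO. It fell 3.64-fold in iWAT (log2 fold change -1.86, SE 0.1905, adjusted p = 1.66e-05) and 3.34-fold in BAT (log2 fold change -1.74, SE 0.1295, adjusted p = 4.27e-07) without overlap. Adipor1 was at 148, 136, 149, 174 and 176 CPM in Control and 137, 141, 135, 118 and 130.1 CPM in Ai-α4KO iWAT, and at 224, 231, 251, 224 and 292 CPM in Control and 173, 178, 237, 247 and 216 CPM in Ai-α4KO BAT. The Adipor1 groups overlapped in both depots, and its log2 fold change was -0.25 in iWAT (95% interval -0.47 to -0.03, adjusted p = 0.0559) and -0.25 in BAT (95% interval -0.55 to 0.05, adjusted p = 0.134).

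On the FPKM scale, Adipor2 was the more abundant receptor transcript in Control fat and the levels of the 2 receptors overlapped in Ai-α4KO fat. Mean FPKM in Control and Ai-α4KO iWAT was 217 ± 14.4 and 65.6 ± 19.5 for Adipor2 (SD, n = 5), against 69.7 ± 9.37 and 64.0 ± 4.23 for Adipor1. In BAT it was 225 ± 14.3 and 81.4 ± 12.7 for Adipor2 and 93.7 ± 12.4 and 94.1 ± 10.6 for Adipor1. The Adipor1 to Adipor2 ratio of FPKM ran from 0.26 to 0.402 in Control and 0.599 to 1.44 in Ai-α4KO iWAT, and from 0.366 to 0.502 and 0.814 to 1.61 in BAT. The ratio, a measure chosen after the values were seen, was 3.15-fold higher in iWAT and 2.80-fold higher in BAT (geometric means). A two-sided exact permutation test gave p = 0.0079 in each depot, the smallest that 5 against 5 libraries can give, but it is not independent evidence, because the values of both genes were known when the ratio was chosen.

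**Figure D3:**
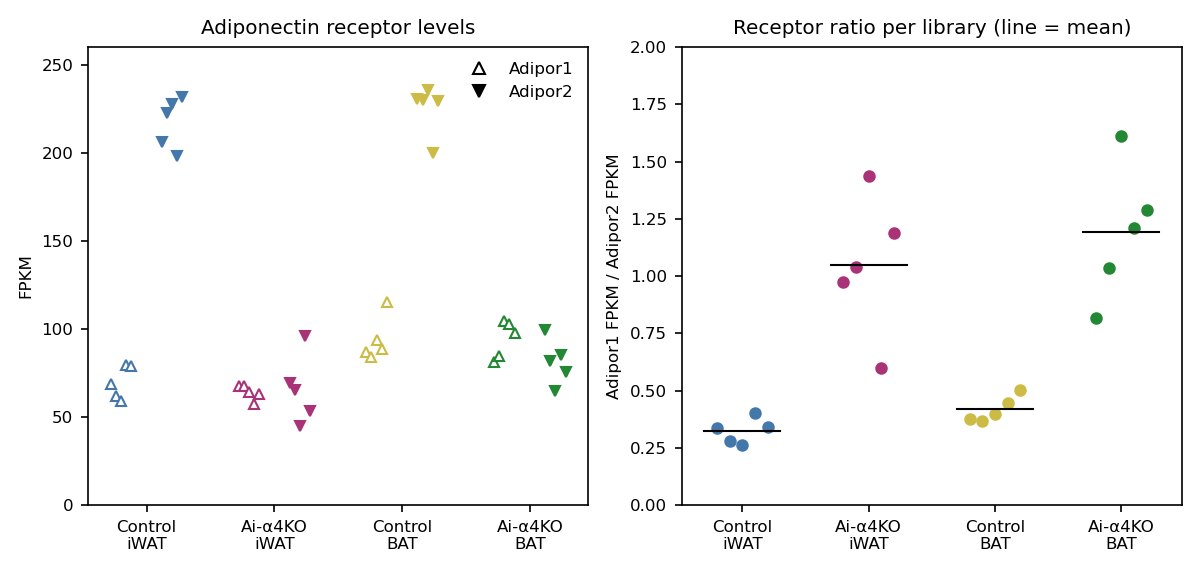
Left, FPKM of Adipor1 (open triangles) and Adipor2 (filled triangles) in each library. Right, their ratio per library, with lines at the mean of 5. The 10 Control libraries lie at ratios of at most 0.502 and the 10 Ai-α4KO libraries at 0.599 or above.

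Each member was then set against other adipocyte transcripts of the same library, as log2 CPM minus the mean log2 CPM of the 16 adipocyte markers, which itself was 10.4 in Control and 8.75 in Ai-α4KO iWAT and 10.4 and 8.84 in BAT. Adipoq was lower relative to the markers in both depots, by a difference of -0.62 ± 0.0866 in iWAT and -0.56 ± 0.0889 in BAT (± SE, exact permutation test, two-sided, adjusted p = 0.0265 over 20 tests), with no overlap. This holds against the average marker, because the markers fell unequally, some further than Adipoq and others less. In iWAT mean CPM went from 1886 to 247 for Gpd1 and from 3711 to 2398 for Cd36. In BAT mean CPM went from 7990.5 to 1139 for Gpd1 and from 15821 to 12191 for Fabp4. Rbp4 was relatively lower in iWAT (-1.06, adjusted p = 0.0265, exact permutation test), a call lost when the median of the markers replaced their mean. Cfd (-0.94 in iWAT and -0.78 in BAT) and Adipor2 (-0.26 and -0.12) were not called in either depot. On this scale the calls in iWAT were 2 members up and 2 down, and those in BAT 3 up and 1 down. Of all 15230 genes, 77.2% were higher and 1.08% lower relative to the markers in iWAT, and 80.6% and 1.23% in BAT, at a permutation p no larger than 0.0159, the largest of a called member, so that being relatively higher was shared with most genes. Relative to the markers, Adipor1 was higher by 1.40 in iWAT and 1.37 in BAT and Sfrp5 by 2.42 in BAT (exact permutation test, adjusted p = 0.0265 each). Nampt was relatively higher in iWAT (1.14) and Retn in BAT (2.04), both at an adjusted p of 0.0397 by the same exact permutation test. Nampt was lost without Control iWAT 1, 2, 3 or 5 or Ai-α4KO iWAT 2 or 3, and Retn without Control BAT 1, 2 or 3 or Ai-α4KO BAT 2, 3 or 4, where 4 against 5 libraries allow no p below 0.0159. On log2(FPKM + 1), Cfd in iWAT (-0.96) and Apln in iWAT (0.94) and BAT (1.26) were also called. Leaving out 1 library added calls too, with counts of up to 11: Cfd in iWAT (without Ai-α4KO iWAT 1, Control BAT 5 or Ai-α4KO BAT 1), Adipor2 in iWAT (Ai-α4KO iWAT 2), Sfrp5 in iWAT (Ai-α4KO iWAT 4), Apln in BAT (Control BAT 5), and Cfd and Nampt in BAT (Ai-α4KO BAT 1).

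**Figure D4:**
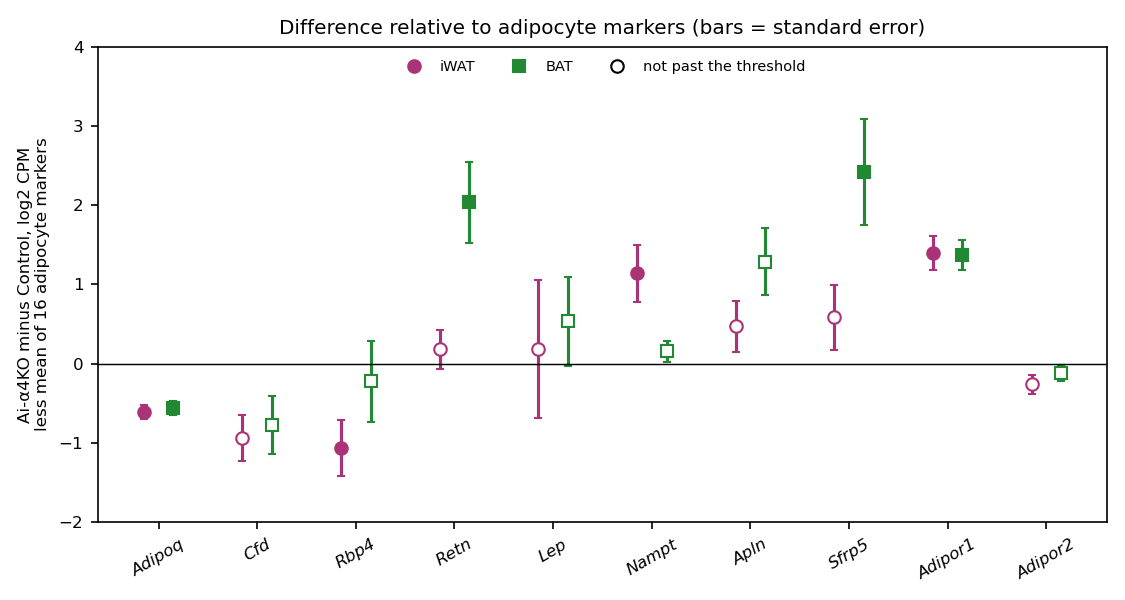
Difference between Ai-α4KO and Control in log2 CPM of each gene less the mean log2 CPM of 16 adipocyte markers of the same library, in iWAT (circles) and BAT (squares), with standard errors as bars. Filled symbols passed an adjusted p of 0.05 in the exact permutation test. Adipoq lies at -0.62 and -0.56 and Adipor1 at 1.40 and 1.37.

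Depots were compared within each genotype. In Control mice Retn was 9.27-fold lower in BAT than in iWAT (log2 fold change -3.21, adjusted p = 2.80e-05) and Cfd 3.13-fold lower (-1.65, adjusted p = 3.87e-04), while Nampt was 3.002-fold higher in BAT (1.59, adjusted p = 1.71e-04). These were 2 members lower and 1 higher of 10, where 14.7% of all genes were lower and 7.22% higher in BAT. Adipoq (-0.54, adjusted p = 0.00316) and Adipor1 (0.61, adjusted p = 9.50e-04) passed the p threshold at less than a 2-fold difference. Lep (-2.78, adjusted p = 0.0178) and Rbp4 (-1.75, adjusted p = 0.0173) did not pass. Both were called without Control BAT 5, their highest BAT library (-3.44 and -2.45), which raised the count from 3 to 5, and Lep also without Control iWAT 3 (-3.07), while without Control iWAT 5 Lep was at -2.18. Both were also called by DESeq2 and in 1 fit of all 20 libraries, and Rbp4 by limma on log2 FPKM (-2.06 and -2.08 with pseudocounts of 1 and 0.1). At an adjusted p below 0.05 without a fold minimum 8 members passed, against 51.4% of all genes.

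In Ai-α4KO mice 1 of 10 members differed between depots, Lep, which was 3.11-fold lower in BAT (log2 fold change -1.64, adjusted p = 0.00609), where 3.09% of all genes were lower and 8.40% higher in BAT. No member was higher, by DESeq2 as well, although 3 were at an unadjusted p below 0.05. The Lep call was lost without Ai-α4KO iWAT 1, 3, 4 or 5 or Ai-α4KO BAT 2, 4 or 5, and without Ai-α4KO iWAT 1 and 2 together (-1.73), with log2 fold changes of -1.44 to -1.70 where 1 library was left out and the call lost. In 1 fit of all 20 libraries Lep was also lost (-1.68) and Cfd called (-1.32). At an adjusted p below 0.05 without a fold minimum 5 members passed, against 36.7% of all genes. Retn was 2.09-fold lower in BAT (adjusted p = 0.048) and Nampt 1.73-fold higher (adjusted p = 0.00153), and neither was called. Without Ai-α4KO BAT 1 Cfd was also called (log2 fold change -1.74, against -1.28 with it). No member passed the test of a depot difference in the genotype effect, where 4.86% of 15230 genes passed, with 3 members at an unadjusted p below 0.05 and 1 called by DESeq2 (Retn). At an adjusted p below 0.05 the count was 2, against 15.1% of all genes.

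By mean CPM, the 4 groups ordered in the same way for Adipoq, Cfd and Rbp4, with Control iWAT first and Control BAT, Ai-α4KO iWAT and Ai-α4KO BAT after it. For Adipoq the means were 3239 ± 455, 2277 ± 85.2, 702 ± 228 and 529 ± 175 CPM (SD, n = 5), and the last pair overlapped. For Retn the order was Control iWAT (1138 ± 306), Ai-α4KO iWAT (403 ± 61.5), Ai-α4KO BAT (187 ± 120) and Control BAT (125.6 ± 61.3), where each of the last 3 overlapped its neighbour. Nampt ran from Control BAT (853 ± 80.7) through Ai-α4KO BAT (315 ± 20.3) and Control iWAT (278 ± 90.3), which overlapped, to Ai-α4KO iWAT (189 ± 35.6), which also overlapped Control iWAT.

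Within Control iWAT the libraries with the most leptin were those with the least Ucp1, the uncoupling protein of brown and beige adipocytes. Control iWAT 1 to 5 held 255, 240.4, 314, 18.03 and 5.13 CPM of Ucp1 and 131, 322, 455, 101 and 66.8 CPM of Cidea, a lipid droplet protein also high in brown fat. Control iWAT 4 and 5, at 1003 and 1335 CPM of Lep, were also the 2 highest for Rbp4 (557 and 658 CPM), Apln (8.13 and 9.20 CPM), Nampt (348 and 359 CPM) and Adipor1 (174 and 176 CPM), and the 2 lowest for Cfd (7346 and 9391 CPM) and Sfrp5 (2.34 and 3.25 CPM). Adipoq was at 3103 and 3791 CPM in them, the latter its highest Control iWAT library. Retn was at 1454 and 1090 CPM in them and Adipor2 at 847 and 1017 CPM, so neither gene put both libraries at one end. With 5 libraries this is a description without a test. Control iWAT 4 also stood apart in B cell, epithelial and muscle markers, as given above. In Ai-α4KO iWAT, Ucp1 was at 0.709 to 2.53 CPM in all 5 libraries, and Lep, at 85.3 to 179 CPM, was below the 2 Control libraries of low Ucp1. In BAT the library highest in Lep, Rbp4 and Apln was Control BAT 5 (212, 294.9 and 10.2 CPM), at 4325 CPM of Ucp1, where the Control BAT range was 4095 to 6674 CPM.

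**Figure D5:**
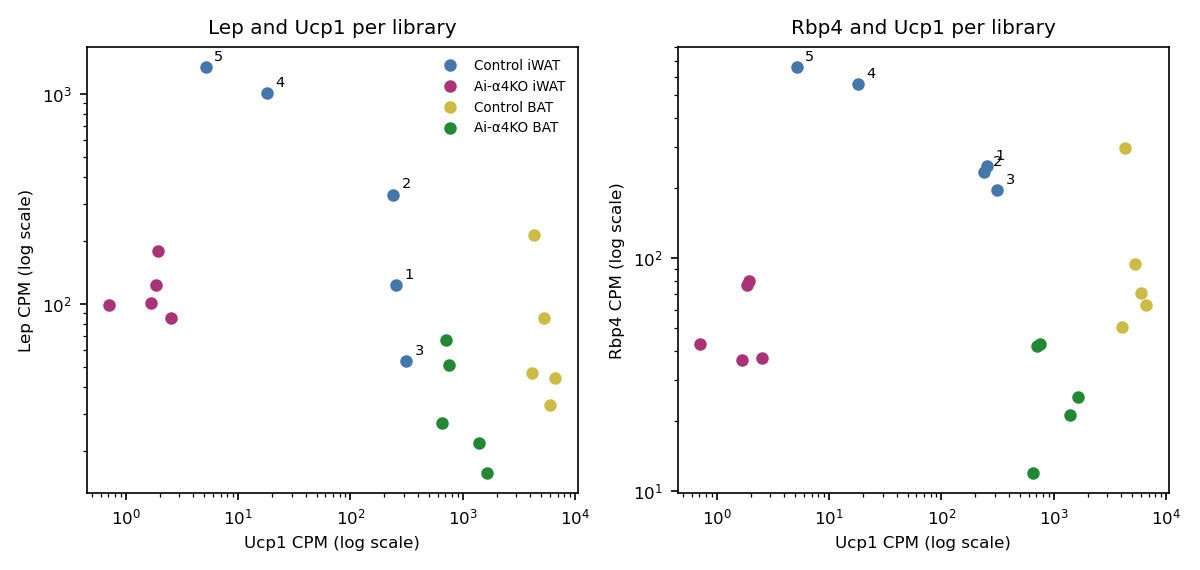
Lep (left) and Rbp4 (right) against Ucp1 in each library, all as CPM on log axes, coloured by group, with Control iWAT libraries numbered by replicate. Control iWAT 4 and 5 lie at 18.03 and 5.13 CPM of Ucp1 and at 1003 and 1335 CPM of Lep.

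Other genes of the same pathways were taken from lists. Of the adipokine receptor list, 7 of 8 genes could be tested in iWAT and 6 in BAT. C3ar1, the complement C3a receptor found on myeloid cells, rose 4.95-fold in iWAT and 22.2-fold in BAT, beside the higher macrophage marker sums given above. Cdh13 (T-cadherin, which binds adiponectin complexes) fell 2.596-fold in iWAT (adjusted p = 0.00253), and in BAT its log2 fold change was -0.39 (adjusted p = 0.226). The leptin receptor Lepr (-0.38 in iWAT and 1.11 in BAT), the apelin receptor Aplnr (-0.22 and -0.37), the resistin-binding protein Cap1 (0.94 and 0.92) and the chemerin receptor Cmklr1 (-1.07 and 0.99) did not pass both thresholds. The RBP4 receptor gene Stra6 was not tested in either depot, and its relative Stra6l was tested in iWAT alone (0.47, adjusted p = 0.665). The receptor list median was -0.22 in iWAT and 0.95 in BAT.

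Of 8 genes for the assembly and secretion of adiponectin, Colgalt1, a collagen galactosyltransferase, rose in iWAT (log2 fold change 1.20) and BAT (1.29), and Plod2, a lysyl hydroxylase, in BAT (1.97). Gstk1, also known as DsbA-L and linked to adiponectin multimer assembly, fell in iWAT (85.4 ± 10.99 to 34.1 ± 4.52 CPM, SD, n = 5, log2 fold change -1.33, adjusted p = 8.28e-06), and its BAT value of -0.92 was short of 2-fold. The chaperone gene Erp44 and the oxidase genes Ero1l and Ero1lb were not called. The list median was 0.44 in iWAT and 0.25 in BAT. Of 11 genes of adiponectin signaling inside the cell, Ppara, a nuclear receptor for fatty acids, fell 6.81-fold in iWAT and 5.85-fold in BAT. In BAT the AMP-activated kinase subunit genes Prkaa2 (1.08) and Prkab2 (1.26) rose and Prkag2 (-1.69) fell, where the skeletal muscle marker sums were also higher in every Ai-α4KO library than in any Control library, and their part in these values was not tested. The list median was -0.09 in iWAT and -0.16 in BAT.

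Of 9 adiponectin paralogs, C1qtnf9 fell in iWAT (-1.52) and BAT (-1.83), as did Fam132a, the gene of C1QTNF12 (-1.68 and -1.87). C1qtnf6 (1.71) and C1qtnf7 (1.79) rose in BAT. There 4 stromal markers summed to 246 to 527 CPM in Control and 586 to 772 CPM in Ai-α4KO libraries. Of these markers Dpt alone was called higher in BAT. In iWAT their sums were 994 to 2307 CPM in Control and 668 to 2059 CPM in Ai-α4KO libraries. The part of stromal cells in the paralog values was not tested. The paralog medians were 0.04 in iWAT and 0.20 in BAT. Among 3 other resistin family genes 2 were tested, and Retnla (RELMα, 109 ± 86.4 to 481 ± 306 CPM) and Retnlg (1.89 ± 1.37 to 7.03 ± 2.36 CPM) rose in BAT (log2 fold change 2.12 and 1.86) but did not pass in iWAT (1.40 and 0.36), with medians of 0.88 in iWAT and 1.99 in BAT. Retn itself was not called in BAT.

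For leptin signaling, 2 of 7 genes rose in iWAT, where 11.3% of all genes did, and 3 rose and 1 fell in BAT, where 18.2% of all genes rose and 13.3% fell. Socs3, an inhibitor of leptin and cytokine signaling, rose 6.22-fold in iWAT and 16.2-fold in BAT, and Ptpn1, the gene of the phosphatase PTP1B, 2.24-fold and 2.43-fold. Stat3 (1.14) rose and the adaptor gene Sh2b1 (-1.36) fell in BAT. The list median was 0.80 in iWAT and 0.85 in BAT. Of the alternative complement genes other than Cfd, 3 of 5 rose in iWAT (11.3% of all genes) and 3 of 4 tested rose in BAT (18.2% of all genes), and none fell. Cfb, which encodes the substrate of adipsin, rose from 346 ± 82.0 to 825 ± 107 CPM in iWAT and from 33.5 ± 14.2 to 308 ± 106 CPM in BAT (SD, n = 5, log2 fold change 1.25 and 3.16), and Cfp (properdin) by 2.20 and 3.61 on the log2 scale. Cfi rose in iWAT (2.24), while C3 did not pass (0.16 and 0.19). The complement median was 1.25 in iWAT and 2.71 in BAT, beside the macrophage marker sums given above.

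Of the retinoid list, 5 of 8 genes could be tested in iWAT and 4 in BAT. Rbp7, a retinol binding protein of endothelial cells and adipocytes, fell 5.66-fold in iWAT and 4.80-fold in BAT, and Aldh1a1 (1.88) rose in BAT. The retinoid medians were 0.44 in iWAT and 0.37 in BAT, and 4 endothelial markers summed to 309 to 412 CPM in Control and 143 to 204 CPM in Ai-α4KO iWAT, and to 614 to 901 and 218 to 296 CPM in BAT. For NAD metabolism, where Nampt acts, Cd38, an NAD-consuming enzyme of immune cells, rose in iWAT (1.51) and BAT (1.14). In BAT Nnmt (1.57) rose and Naprt (-1.06), Qprt (-1.03) and Nadk (-1.19) fell, and the list median was -0.41 in iWAT and -0.46 in BAT. Of the Sfrp and Wnt5 list, Sfrp1 rose in iWAT (1.20) and BAT (1.501) and Sfrp4 in BAT (2.13), with medians of -0.17 and 0.84. In BAT the stromal marker sums given above were also higher, and their part in the Sfrp values was not tested.

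Among 14 other secreted factors of fat, 12 were tested in each depot. Of these, 4 rose and 2 fell in iWAT, where 11.3% of all genes rose and 10.7% fell, and 6 rose and 2 fell in BAT, against 18.2% and 13.3%. Gdf15, a stress cytokine, went from 0.324 ± 0.356 to 23.7 ± 11.9 CPM in iWAT and from 1.03 ± 1.11 to 28.8 ± 13.9 CPM in BAT, and Fgf21, a hormone of fasting and mitochondrial stress, from 0.206 ± 0.105 to 11.01 ± 3.71 and from 0.257 ± 0.153 to 7.83 ± 5.001 CPM (SD, n = 5). Lcn2 (lipocalin 2) rose by 4.95 and 7.12 and Metrnl by 1.82 and 2.79 on the log2 scale, and 4 of 5 neutrophil markers tested in iWAT and 4 of 4 in BAT were also called higher, with Elane called lower in iWAT. Nrg4, a factor released by brown adipocytes, fell in iWAT (-2.48) and BAT (-2.29), Agt in iWAT (-1.16) and Angptl4 in BAT (-1.81). Fbn1 (1.16) rose in BAT, where the stromal marker sums given above were also higher, and their part in its value was not tested. The median was 0.50 in iWAT and 1.03 in BAT.

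For each member the genes with the most similar pattern were found by the root mean square difference of log2 CPM over the 20 libraries, after each gene was centred on its own mean, among 15230 genes. Nearest to Adipoq was Acbd4, an acyl-CoA binding protein gene, at a difference of 0.247, with Slc1a5 (0.257) and Amy1 (0.279) next. Adipor2 was nearest to Gnpat (0.175), an enzyme of ether lipid synthesis, Mccc2 (0.195), an enzyme of leucine breakdown, and Ganc (0.211). Adipor1 was nearest to Ubl4 (0.145), the proteasome subunit gene Psmb7 (0.147) and Cops7a (0.152). Retn lay next to Serpina3c (0.354), Slc7a10 (0.414) and Adcy5 (0.502), Cfd to Car5b (0.425), Rhbdl1 (0.525) and Mgst2 (0.570), and Nampt to Mrpl39 (0.268), Trmt2b (0.281) and Prex2 (0.282). For the other members the differences were 0.838 to 0.910 for Lep (Igfals, Glb1l2 and its fellow member Rbp4), 0.610 to 0.635 for Rbp4 (Raver2, Mfng and Aoc3), 0.404 to 0.420 for Apln (Sema4b, Tm7sf2 and Pcdhgc3) and 0.602 to 0.644 for Sfrp5 (Shisa3, Sbspon and Gna14). These likenesses describe the same 20 libraries and carry no test.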

How the data were processed

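RNA was measured in stranded poly(A) libraries of iWAT and BAT, 5 per genotype and tissue. The authors deposited an expected count per gene and library, an estimated number of reads without normalization, and 76.7% of those above 0 were whole numbers within 1e-06. FPKM values were deposited as well, each equal to the count divided by transcript width and by 1 total per library. The submitters' processing notes name bcl2fastq 2, STAR 2.5.3a and mm10, and the counting tool and annotation release are not given in the sources used here.

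After rounding, counts were fitted with edgeR 4.0.16 in R 4.3.3 (filterByExpr, TMM, glmQLFit, quasi-likelihood test, Benjamini-Hochberg over all genes tested), within each tissue or genotype, and over all 20 libraries for the depot difference of the genotype effect. A gene was called where its adjusted p was below 0.01 and its fold at least 2, and the depot difference at an adjusted p below 0.01 alone. Printed CPM used TMM factors over all 20 libraries, and log2 CPM a prior count of 2. Differences relative to 16 adipocyte markers and the receptor ratio were compared by exact permutation tests (own code, checked against scipy 1.17.1), the former with Benjamini-Hochberg adjustment over 20 tests and called below 0.05. Intervals are 95% intervals from the fit. The edgeR fit of genotype in iWAT was tested on simulated counts, and the permutation function on random draws.

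Members and lists were chosen with earlier results of these data known. Named genes were the members, Igbp1, the adipokine receptor list, the extremes of each list and the 3 nearest genes of each member, and other called list genes, the markers Ucp1 and Cidea and the receptor ratio were chosen after their values were seen. Some genes counted in the lists are not reported here by name. Promoter sequences came from RefSeq (GRCm38.p6), where all 10 members had an entry. Alternatives were DESeq2 1.42.0, limma 3.58.1 on log2(FPKM + 1) and log2(FPKM + 0.1), no normalization factors, upper-quartile factors, an adjusted p below 0.05 without a fold minimum, no filter, a minimum of 10 counts in all libraries, 1 fit of all libraries, a replicate block and leaving out each library. Leaving out iWAT libraries with high B cell, epithelial or muscle markers, or the BAT libraries with the least and most muscle markers, was added after seeing the data. Libraries held 24023371 to 50384446 counts.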

Additional observations from a re-analysis of the deposited data

Results flagged for a closer look

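In groups of 5 libraries, 1 library stood apart from the rest by Dixon's criterion (critical value 0.71) in 4 of 40 groups examined, and chance flags about 1 group in 20. Adipoq was at 840.4 CPM in Ai-α4KO BAT 1, where the others were at 440 to 469. In Control BAT 5, Rbp4 was at 294.9 CPM against 50.5 to 94.0 in the others, and Apln at 10.2 CPM against 1.64 to 3.17. Sfrp5 was at 7.84 CPM in Ai-α4KO BAT 5 against 1.34 to 2.47.

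The genotype effect differed between depots in the interaction test (edgeR, adjusted p below 0.01) for 10 of 87 genes tested from the pathway lists (11.5%, against 4.86% of all genes) and for no member. The values are the log2 effect in BAT minus that in iWAT. They were 2.20 for C3ar1 (adjusted p = 2.93e-04), 2.10 for Cmklr1 (0.00719), 1.95 for Cfb (0.00257) and 1.44 for Cfp (0.0098), beside macrophage markers of which 5 of 7 also passed this test. For AMP-activated kinase subunits they were 1.8001 for Prkaa2 (0.00793), -0.79 for Prkab1 (0.00375) and -1.35 for Prkag2 (0.0027). In NAD metabolism they were 1.85 for Nnmt (9.00e-04) and -0.72 for Nadk (0.00685). Serpina12, the gene of vaspin, had 3.93 (0.00704), but its Control BAT libraries held at most 1 count each, so this fitted value depends on the prior count. The part of macrophage and muscle markers in these values was not tested.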

How the results depend on the processing

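No called log2 fold change of a member changed sign under any alternative. Of the log2 fold changes recomputed for the members, 1067 kept their side of the threshold, 27 gained a call and 13 lost one. Leaving out 1 library at a time, the count of members called ran from 5 to 7 in iWAT, 4 to 5 in BAT, 3 to 5 for Control BAT against iWAT, 0 to 2 for Ai-α4KO BAT against iWAT, 0 to 1 for the depot difference and 7 to 11 relative to adipocyte markers. In the first 5 of these comparisons 19.5% to 23.5%, 29.2% to 31.4%, 19.5% to 22.5%, 8.55% to 13.1% and 3.07% to 6.63% of all genes were called. At an adjusted p below 0.05 without a fold minimum the counts were 8 in iWAT (5 in the main test), 8 for the Control depots (3), 5 for the Ai-α4KO depots (1) and 2 for the depot difference (0), where 54.7%, 51.4%, 36.7% and 15.1% of all genes passed. DESeq2 called 7 in iWAT (Apln and Lep added, 23.8% of all genes). It called 5 for the Control depots (23.4%), as did 1 fit of all 20 libraries (22.7%), adding Lep and Rbp4, and 1 for the depot difference (Retn, 10.8%), as did a minimum of 10 counts in every library (6.88%). Without Ai-α4KO iWAT 1 and 2 the Ai-α4KO depot count was 0, where 1420 of 14995 genes were higher and 630 lower in BAT. On log2 FPKM by limma the Rbp4 fall in BAT was not called (-1.53 and -1.58 with pseudocounts of 1 and 0.1). The cause of these changes was not tested.

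Same-numbered libraries did not deviate together (correlations of -0.451 to 0.244), so the numbers were not taken as pairs. With a replicate block the Ai-α4KO depot count was 2 (Cfd added) and the Control depot count 4 (Rbp4 added, -1.89), where 9.62% and 20.7% of all genes were called, Lep in iWAT was at -1.49, and no call relative to adipocyte markers was made (0 of 8) because 5 pairs allow no p below 0.0625. For the same reason the receptor ratio did not pass with the block in either depot, at unchanged values (1.66 and 1.49 on the log2 scale), and it passed under its other alternatives. Apln and Sfrp5 rested on 8 to 314 counts a library, so that counting error is part of their spread.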
